A study of Mus musculus with 23 samples.

Results

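Monocytes that had entered the tissue around a poly(ethylene glycol) (PEG) hydrogel were compared between day 28 and day 14 after implantation. The comparison rests on 6 of the 23 RNA sequencing libraries of the series, those labelled as monocytes of day 28 and of day 14, with 3 biological replicates each (A, B and C). All 6 came from wildtype C57BL/6J mice with a PEG hydrogel, a water-swollen synthetic polymer network, placed under the skin. Tissue and gel were taken out and digested with the enzyme mix Liberase TM, and monocytes were described as Cx3cr1+ and Ly6C-high cells. The other groups were monocytes at day 2, monocytes of mice without an implant, and Cx3cr1+ Ly6C-low macrophages at the same times. The labels call the replicates biological but do not say whether 1 or several animals stand behind each, so p-values measure the spread between these samples. The study set out to follow both cell types over the foreign body response.

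Classical, Ly6C-high monocytes are made in the bone marrow, circulate in blood and enter inflamed tissue through the chemokine receptor Ccr2. In tissue they make cytokines and chemokines, respond to interferon, and can become macrophages or leave. Around an implanted material the early inflammation is followed by macrophages that fuse into giant cells and by a collagen capsule.

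The libraries held 17693873, 20786916 and 19514742 counts at day 28 and 19886927, 19633393 and 28397413 counts at day 14. Levels are given as CPM, counts scaled to a common library size, with library sizes adjusted by TMM, a factor that evens out the bulk of genes between libraries. Ly6c2, which encodes the sorted Ly6C protein, had 2171, 836 and 991 CPM in the day 28 libraries, against 2037, 1511 and 3586 CPM in the day 14 libraries. In the macrophage libraries it had 5.49, 15 and 62.4 CPM at day 28 and 51.8, 64.9 and 24.2 CPM at day 14, so monocyte libraries of both days carried the sorted marker well above macrophage libraries. The monocyte chemokine receptor Ccr2 had 1019, 2114 and 2192 CPM in the day 28 libraries, against 1526, 2219 and 1176 CPM in the day 14 libraries. The fractalkine receptor Cx3cr1 had 84.1, 189 and 97.8 CPM in the day 28 libraries, against 81.3, 105 and 54.7 CPM in the day 14 libraries. The neutrophil marker Ly6g stayed at or below 0.0692 CPM in all 6 libraries. This 1 gene does not stand for all neutrophil genes. A list of 20 of them summed to 391, 654 and 651 CPM at day 28 and 1013, 346 and 559 CPM at day 14. Of 11 genes tied to the sort, 0 passed the edgeR test between the days, and DESeq2 and limma voom passed 0. At an unadjusted p under 0.05 in edgeR, 0 were higher and 2 lower (Fcgr1 and Ly6c1), which is 18.2% lower, against 8.56% of all genes.

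Several properties of the libraries moved with the day. TMM factors were 1.01, 0.986 and 1.04 at day 28 and 0.727, 0.945 and 0.733 at day 14. Mitochondrially encoded genes took 0.609, 0.624 and 0.997% of counts at day 28 and 1.53, 1.28 and 1.44% at day 14. The ribosomal RNA entry CT010467.1 held 552, 504 and 705 CPM of the raw totals at day 28 and 1869.8, 1101 and 2918 CPM at day 14, with no overlap between the days. Globin genes of red blood cells summed to 26.3, 1.49 and 6.25 CPM at day 28 and 543, 201 and 604 CPM at day 14. The slope of a library's expression on transcript GC content, in log2 units per 10 percentage points of GC, was 0.109, 0.176 and -0.0129 at day 28 and -0.104, -0.282 and -0.103 at day 14. The slope on exon length, in log2 units per doubling, was -0.0725, 0.0862 and 0.0206 at day 28 and -0.140, -0.0424 and -0.163 at day 14. The days did not overlap in TMM factor, mitochondrial share, CT010467.1, globin or GC slope, and they overlapped in length slope. Their part in the differences between the days was not tested, beyond the offsets for GC and length given with the counts of genes. In bulk samples, fewer cells of a type and less RNA per cell cannot be told apart.

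**Figure D1:**
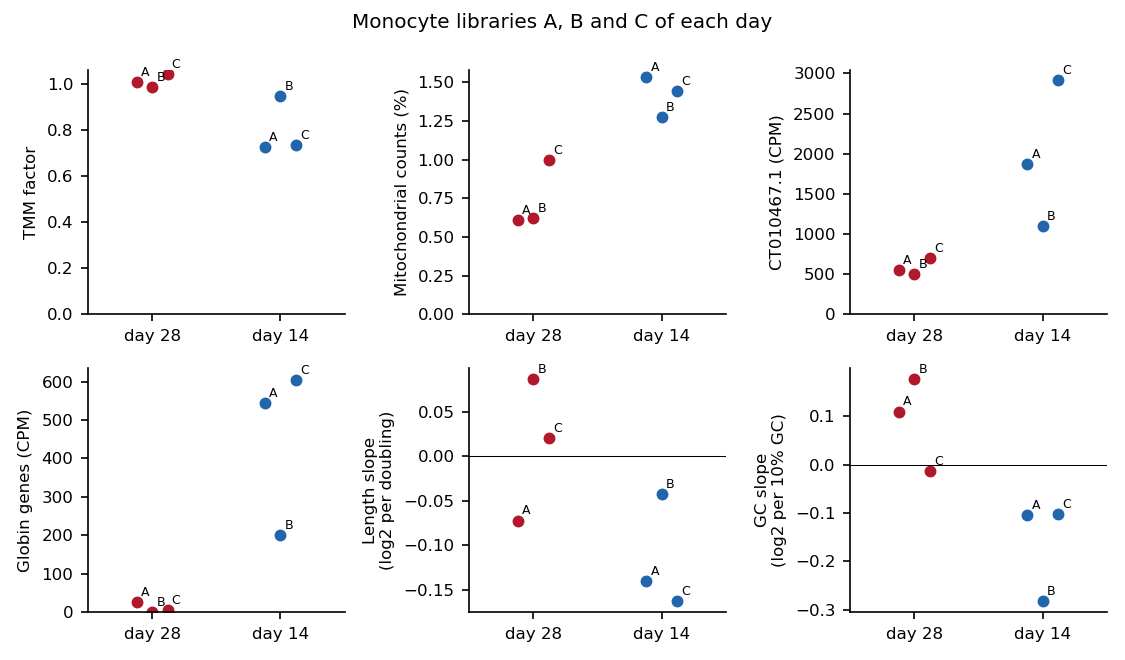
Properties of the 6 monocyte libraries, day 28 left of day 14, 1 point per library with its replicate letter; the vertical axes give the TMM factor, the percent of counts from mitochondrially encoded genes, CPM of the ribosomal RNA entry CT010467.1, summed CPM of globin genes and the slopes on exon length and GC content. Day 14 libraries A and C share a low TMM factor, and globin, CT010467.1 and mitochondrial counts do not overlap between the days.

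The lipid carrier Apoe, the feedback inhibitor Socs3 and many less abundant genes, such as Ddx51 of ribosome assembly, Gpt2 of mitochondrial metabolism and Cog1 of the Golgi, were higher at day 28. A smaller set of mostly abundant genes was lower, among them the cell cycle inhibitor Cdkn1a, the calcium-binding S100a11, the histone gene H3f3b and the urokinase receptor Plaur. Of 16260 genes tested with edgeR's quasi-likelihood test, 117 passed a Benjamini-Hochberg adjusted p under 0.05, which is 0.72% of the genes tested. Of these, 96 were higher at day 28 (0.59% of genes tested) and 21 were lower (0.129%). All 117 had no overlap between the 3 day 28 and the 3 day 14 libraries, a separation that 10.1% of all genes showed in the higher direction and 9.78% in the lower. At an unadjusted p under 0.05, 1805 genes were higher (11.1%) and 1392 lower (8.56%). The adjusted p of the 117 genes ran from 0.0154 to the threshold, so the calls sit close to it.

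The genes that rose were mostly of low to middle level and their changes were large. Their median log2 fold change was 2.49, and their median level was 27.0 CPM at day 28 and 5.28 CPM at day 14. At day 14, 19 of the 96 lay under 1 CPM, and 3 of them had 0 counts there, which leaves the median at 2.49 when each is set to its lower bound. The genes that fell were abundant and changed less, with a median log2 fold change of -1.25 and median levels of 110.4 CPM at day 28 and 248.5 CPM at day 14. All 96 rises and 17 of the 21 falls are annotated as protein-coding. Median transcript GC content was 52.06% for the rises, 45.88% for the falls and 49.15% for all genes tested, and median exon length was 4326, 2672 and 3691 bases.

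The number of genes passing the test depended on single libraries. Without day 28 library B, or without day 14 library A, edgeR passed 0 genes, although 1362 higher and 861 lower, or 1646 higher and 925 lower, kept an unadjusted p under 0.05. Without day 14 library B it passed 7 higher and 6 lower, and without day 14 library C 4 higher and 0 lower. Without day 28 library A it passed 179 higher and 73 lower, and without day 28 library C 62 higher and 3 lower. The sign of all 117 genes stayed the same in each of these fits. With a block for the replicate letter, 2 higher and 0 lower genes passed. The split between directions also depended on scaling. Against 96 higher and 21 lower as reported, scaling by library total alone gave 707 higher and 15 lower, with the median of all genes shifted by 0.30 on the log2 scale, while offsets for GC content gave 173 higher and 141 lower and offsets for exon length 190 higher and 214 lower.

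**Figure D2:**
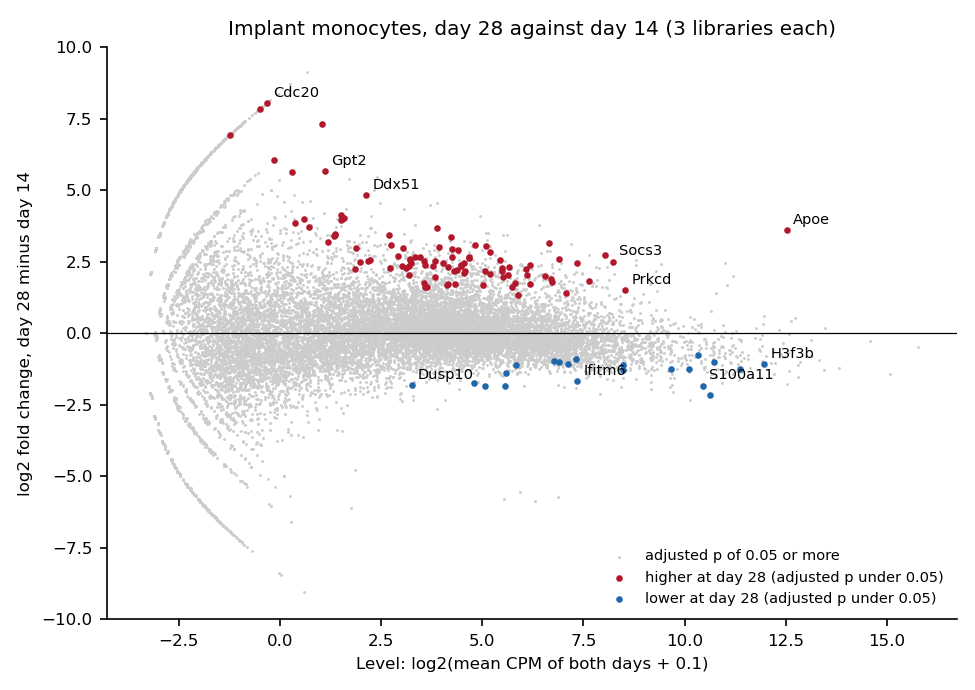
Each point is 1 of 16260 genes, with its level (log2 of the mean CPM of both days plus 0.1) on the horizontal axis and its log2 fold change, day 28 minus day 14, on the vertical axis; coloured points passed an adjusted p under 0.05 in edgeR's quasi-likelihood test. The 96 genes that rose lie mostly at low and middle levels, with Apoe apart at the right, and the 21 that fell lie at higher levels and smaller changes.

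Apoe, the apolipoprotein with which macrophages export cholesterol, was the most abundant gene that rose. It had 17320.1, 9946 and 5356 CPM in the day 28 libraries, against 1344, 257 and 1080.3 CPM in the day 14 libraries. Every day 28 library held more than every day 14 library, and day 14 library B was the lowest of the 6. The log2 fold change was 3.61 ± 0.79 (SE), with an edgeR adjusted p of 0.0478. Mean levels of Apoe in monocytes were 1441, 1334, 894 and 10874 CPM in controls and at days 2, 14 and 28. Other lipid genes that rose were Dgat1, the last enzyme of triglyceride synthesis, with 72.4 CPM at day 28 and 18.6 CPM at day 14, and the glycolipid transfer protein Gltp, with 271 CPM at day 28 and 50.2 CPM at day 14 (log2 fold changes 1.96 ± 0.45 and 2.43 ± 0.51, adjusted p = 0.0485 and 0.0447). The control monocyte means of Dgat1 and Gltp were 25.8 and 384 CPM.

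Apoe also belongs to lists of genes that mark lipid-laden and mature macrophages. Of 23 tested genes of lipid-associated macrophages, edgeR passed Apoe. At an unadjusted p under 0.05, 1 was higher and 5 were lower (4.35% and 21.7%, against 11.1% and 8.56% of all genes). The list's median log2 fold change was -0.31, against 0 for all genes. With scaling by library total these medians were 0.02 and 0.30. DESeq2 passed 1 higher and 3 lower in this list and limma voom 1 higher. The 5 lower became 8 without day 28 library B, and 3 without day 28 library C, day 14 library A or day 14 library C. In that list the tetraspanin Cd9 had 1166, 1539.5 and 1231 CPM in the day 28 libraries, against 4158, 2776 and 3335 CPM in the day 14 libraries (log2 fold change -1.38 ± 0.41, adjusted p = 0.084). Of 24 genes of macrophage maturation edgeR again passed Apoe, and DESeq2 passed 1 higher and 3 lower and limma voom 1 higher. At an unadjusted p under 0.05 in edgeR, 1 was higher (4.17%) and 5 lower (20.8%). Those 5 became 2 without day 14 library C, 3 without day 28 library C and 7 without day 28 library A. The 1 higher became 3 without day 28 library C and 2 without day 28 library A or day 14 library B. With scaling by library total 6 genes of this list were higher and 2 lower. The complement gene C1qa, a macrophage product, had 528, 320.3 and 221 CPM in the day 28 libraries, against 173, 285 and 276 CPM in the day 14 libraries, and did not pass (adjusted p = 0.326). C1qa in the macrophage libraries had 1255, 1416 and 1120.0 CPM at day 28 and 1462, 1407 and 1479.6 CPM at day 14, above every monocyte library of either day. Of 26 genes of resident macrophages 0 passed in edgeR, 1 was higher (3.85%) and 2 were lower (7.69%) at an unadjusted p under 0.05, and DESeq2 passed 0 higher and 2 lower and limma voom 0.

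The 117 genes were sorted into roles after their values were seen, so the groups below are descriptions without a test. How many of all tested genes have each role was not counted. The size of a group therefore does not show that its role was more common than among all genes. Among 8 rising genes of RNA and ribosome processing the median log2 fold change was 3.13. Ddx51, an RNA helicase needed for the large ribosomal subunit (chr5:110653451-110660496 in GRCm38), had 5.67, 11.1 and 7.97 CPM in the day 28 libraries, against 0.277, 0.593 and 0 CPM in the day 14 libraries. Every day 28 library stood above every day 14 library, and 1 day 14 library had 0 counts. Its log2 fold change was 4.83 ± 0.75 (adjusted p = 0.0218). Gar1, a protein of the particles that pseudouridylate ribosomal RNA, had 8.77, 5.37 and 1.38 CPM in the day 28 libraries, against 0.415, 0.377 and 0.0962 CPM in the day 14 libraries (4.13 ± 0.89, adjusted p = 0.0461). Tsen34, a subunit of the endonuclease that cuts introns out of transfer RNA, had 32.4, 42.7 and 27.3 CPM in the day 28 libraries, against 3.67, 3.45 and 2.93 CPM in the day 14 libraries (3.35 ± 0.70, adjusted p = 0.0447). Tsen34 was even within both days, whereas the day 28 libraries of Gar1 differed widely. The splicing genes Srsf4, Srrm2 and Usp39 rose by 3.47, 1.79 and 2.30 on the log2 scale, to 4.55, 163 and 29.4 CPM at day 28, against 0.405, 47.1 and 5.96 CPM at day 14.

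A further 12 rising genes encode mitochondrial proteins, with a median log2 fold change of 2.59. Gpt2, the mitochondrial alanine aminotransferase, had the smallest adjusted p of all genes (0.0154). It had 2.87, 6.88 and 2.31 CPM in the day 28 libraries, against 0, 0.216 and 0 CPM in the day 14 libraries. The gene was near 0 in all day 14 libraries and above 2 CPM in each day 28 library, and its log2 fold change was 5.67 ± 0.82. Tmem70, an assembly factor of ATP synthase, had 30.6, 29.4 and 20.9 CPM in the day 28 libraries, against 3.32, 1.40 and 1.68 CPM in the day 14 libraries (3.67 ± 0.64, adjusted p = 0.0432). Abcb10, a transporter of the inner membrane, had 3.65, 15.5 and 15.9 CPM in the day 28 libraries, against 0.969, 0.485 and 2.69 CPM in the day 14 libraries (3.06 ± 0.70, adjusted p = 0.0485). Rbfa, which matures the mitochondrial ribosome, averaged 50.3 CPM at day 28 and 5.99 CPM at day 14 (3.07 ± 0.71, adjusted p = 0.0485). Polg, the mitochondrial DNA polymerase, averaged 22.6 CPM at day 28 and 5.76 CPM at day 14 (1.97 ± 0.46, adjusted p = 0.0495). Gtpbp3, Atad3a, Ak3, Slc25a32, Acss1, Akap1 and Pde12 completed the group. No gene of the oxidative phosphorylation list was among the rises.

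Genes of membrane traffic formed a group of 14, with a median log2 fold change of 2.42. Copz2, a subunit of the COPI coat that returns vesicles to the endoplasmic reticulum, had 8.77, 3.76 and 3.84 CPM in the day 28 libraries, against 0.623, 0.0539 and 0.337 CPM in the day 14 libraries (4.03 ± 0.75, adjusted p = 0.0433). Cog1, a part of the Golgi tether complex, had 17.4, 47.7 and 15.4 CPM in the day 28 libraries, against 2.49, 2.64 and 4.71 CPM in the day 14 libraries (3.02 ± 0.64, adjusted p = 0.0447). Nagpa, which uncovers the mannose 6-phosphate tag on lysosomal enzymes, had 59.7, 92.5 and 28.5 CPM in the day 28 libraries, against 6.65, 6.47 and 8.75 CPM in the day 14 libraries (3.04 ± 0.71, adjusted p = 0.0485). In all 3 genes the groups did not overlap, and day 28 library B was the highest library for Cog1 and Nagpa but not for Copz2. The Golgi syntaxin Stx6, the sorting nexin Snx9 and the endosomal protein Pdcd6ip also rose (2.31 ± 0.49, 2.46 ± 0.57 and 2.00 ± 0.42). A group of 18 genes of protein folding, modification and turnover had a median of 2.38, among them the glycoprotein-binding Mlec (73.5 CPM at day 28 and 16.5 CPM at day 14), the deglycosylase Ngly1 (49.5 CPM at day 28 and 15.4 CPM at day 14) and the proteasome subunit Psmd3 (121 CPM at day 28 and 23.4 CPM at day 14). Hhat and Porcn, the acyltransferases that lipidate Hedgehog and Wnt proteins, had 1 and 2 counts over the 3 day 14 libraries against 235 and 133 counts at day 28. Their ratios of level were 215.6 (95% counting interval 38.3 to 8551) and 61.0 (16.6 to 509).

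Cdc20, Fzr1 and Cdc16, all of the complex that ends mitosis, rose, as did 3 repressors of cell cycle promoters. Cdc20, an activator of the anaphase-promoting complex, had 0.787, 2.10 and 1.28 CPM in the day 28 libraries, against 0, 0 and 0 CPM in the day 14 libraries, which makes it at least 25.4-fold higher than a floor of 3 counts over the group (adjusted p = 0.0485). The level at day 28 was low, between 0.787 and 2.10 CPM. Fzr1, the second activator of the complex, had 60.7, 95.8 and 34.6 CPM in the day 28 libraries, against 7.13, 7.98 and 11.7 CPM in the day 14 libraries (2.83 ± 0.63, adjusted p = 0.0485). Its subunit Cdc16 had 37.6, 51.1 and 41.9 CPM in the day 28 libraries, against 6.02, 6.47 and 7.93 CPM in the day 14 libraries (2.67 ± 0.57, adjusted p = 0.0447). The repressors E2f6, E2f4 and Rbl2, which act on cell cycle promoters, averaged 5.21, 37.1 and 24.1 CPM at day 28, against 0.315, 7.24 and 4.19 CPM at day 14 (log2 fold changes 3.96 ± 0.91, 2.35 ± 0.54 and 2.52 ± 0.58). Of a list of 55 tested cell cycle genes edgeR passed Cdc20, DESeq2 3 higher and 2 lower, and limma voom 1 higher and 1 lower. In edgeR 6 were higher and 2 lower at an unadjusted p under 0.05 (10.9% and 3.64%, against 11.1% and 8.56% of all genes). The list's median was 0.41, which was 0.039 without day 28 library B. The 2 lower became 6 without day 28 library A. The spindle protein Tpx2 had 1.40, 2.54 and 2.36 CPM in the day 28 libraries, against 0, 0 and 0.288 CPM in the day 14 libraries and did not pass (adjusted p = 0.0512), and the chromatin protein Hmgb2 had 31.5, 30.4 and 32.6 CPM in the day 28 libraries, against 70.1, 60.6 and 69.1 CPM in the day 14 libraries and did not pass either (adjusted p = 0.0512). The summed level of the list was 457, 485 and 417 CPM at day 28 and 468, 455 and 489 CPM at day 14, which overlap. H2afx, the histone variant marked at DNA breaks, rose (3.44 ± 0.80, adjusted p = 0.0485), as did the chromatin genes Ash2l, Smarcc1, Mta2 and Pygo2 (2.61 ± 0.52, 1.76 ± 0.35, 2.25 ± 0.51 and 2.20 ± 0.42).

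Among 12 rising genes of signalling and adhesion, Socs3, the feedback inhibitor of cytokine receptors that signal through STAT3, was abundant. It had 217, 638 and 665 CPM in the day 28 libraries, against 103, 64.3 and 101 CPM in the day 14 libraries. Day 28 library A lay well below B and C yet above every day 14 library, and the log2 fold change was 2.50 ± 0.56 (adjusted p = 0.0485). Arhgap9 had 167, 233 and 139 CPM in the day 28 libraries, against 25.3, 10.7 and 24.1 CPM in the day 14 libraries (3.16 ± 0.71, adjusted p = 0.0485). Prkcd, a protein kinase C, had 419, 553 and 660.4 CPM in the day 28 libraries, against 213, 178 and 189 CPM in the day 14 libraries (1.49 ± 0.32, adjusted p = 0.0461). Itgb1, the β1 chain of the integrins that bind matrix, had 200.3, 526 and 203 CPM in the day 28 libraries, against 94.7, 87.6 and 78.9 CPM in the day 14 libraries (1.83 ± 0.43, adjusted p = 0.0489). For Itgb1, day 28 library B was far above A and C, which lay close together. β-catenin, Ctnnb1, averaged 83.6 CPM at day 28 and 33.2 CPM at day 14 (1.33 ± 0.30, adjusted p = 0.0485). The zinc finger gene Zfp358 of the transcription group also rose (14.5 CPM at day 28 and 1.83 CPM at day 14), with an adjusted p of 0.0485. Of 24 tested integrin and adhesion genes edgeR passed Itgb1, DESeq2 2 higher and limma voom 1 higher, with a list median of 0.28. In edgeR 3 were higher and 0 lower at an unadjusted p under 0.05 (12.5% and 0%, against 11.1% and 8.56% of all genes). Without day 28 library A those 3 became 6. Of 34 early response genes edgeR passed Socs3, DESeq2 6 higher and 2 lower, and limma voom 2 higher and 1 lower. In edgeR 6 were higher (17.6%) and 3 lower (8.82%) at an unadjusted p under 0.05, and the 3 lower became 7 without day 28 library A and 5 without day 14 library B. Of that list, Ier2 had 340.1, 335 and 354 CPM in the day 28 libraries, against 73.9, 19.5 and 62.3 CPM in the day 14 libraries and did not pass (adjusted p = 0.0595), while Klf6 had 731, 701 and 754 CPM in the day 28 libraries, against 1134, 1296 and 1727 CPM in the day 14 libraries and did not pass (adjusted p = 0.0626).

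**Figure D3:**
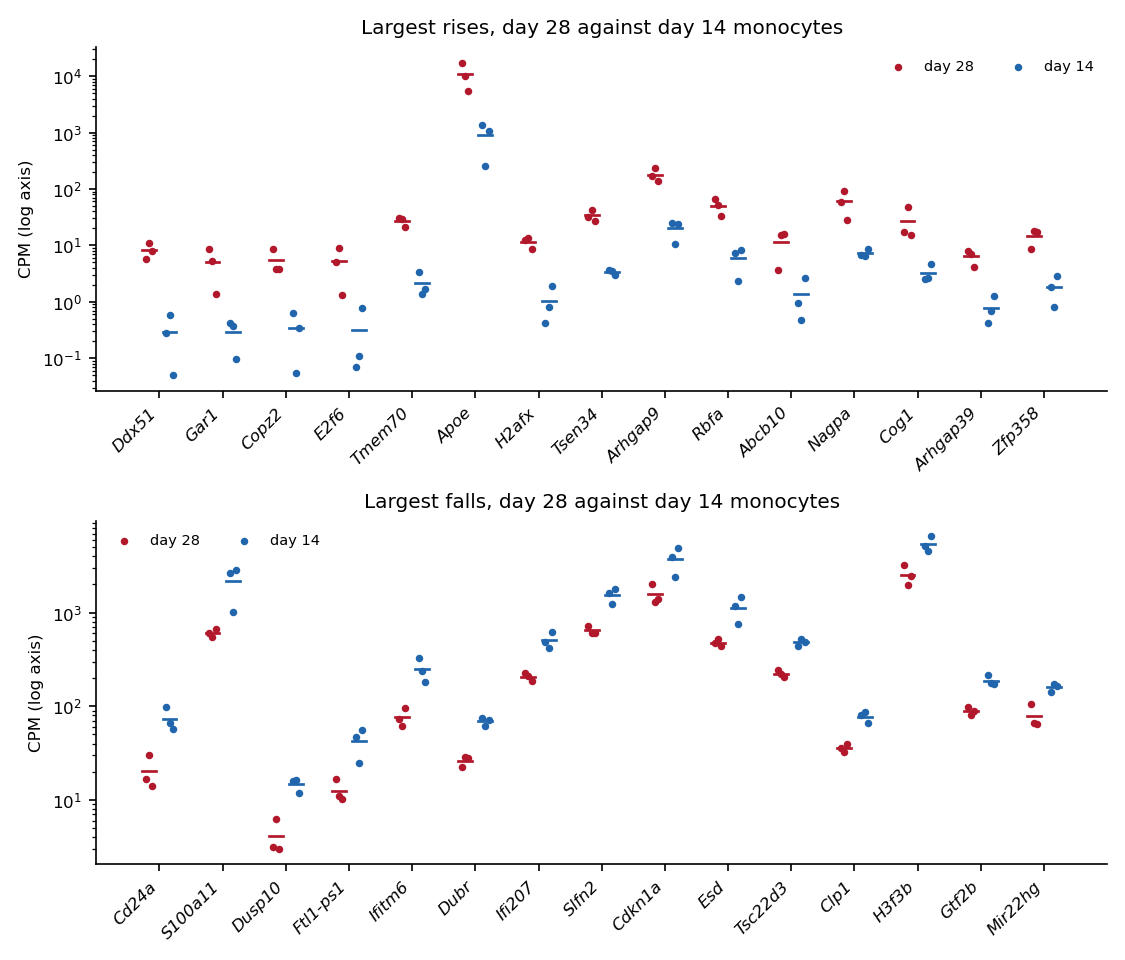
CPM of the 15 largest rises and 15 largest falls picked by the naming rule among genes past the threshold, on log axes; each point is 1 library, bars are group means, and day 28 stands left of day 14 for each gene. The naming rule required no overlap between the days, so its absence here is not a finding. The 0 of Ddx51 in day 14 library C is drawn at 0.05 CPM.

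The 21 genes that fell at day 28 were mostly abundant, 15 of them at 100 CPM or more at day 14. Cdkn1a, the cell cycle inhibitor p21, had 2017, 1299.6 and 1404 CPM in the day 28 libraries, against 3972, 2387 and 4906 CPM in the day 14 libraries (log2 fold change -1.25 ± 0.28, adjusted p = 0.0485). S100a11, a calcium-binding protein, had 605, 553 and 669 CPM in the day 28 libraries, against 2648, 1009 and 2870.4 CPM in the day 14 libraries (-1.84 ± 0.42, adjusted p = 0.0485). The day 28 libraries of S100a11 lay within a narrow range, and day 14 library B lay well below A and C. H3f3b, which encodes the replacement histone H3.3, had 3198, 1984 and 2445 CPM in the day 28 libraries, against 5188, 4591 and 6559 CPM in the day 14 libraries (-1.10 ± 0.21, adjusted p = 0.0438). Plaur, the urokinase receptor, had 1193, 1013 and 1146 CPM in the day 28 libraries, against 2289, 2314 and 2125 CPM in the day 14 libraries (-1.0 ± 0.20, adjusted p = 0.0447). Plaur was tight within both days, and Litaf, an endosomal protein induced by lipopolysaccharide, had the smallest fall of the 21 (-0.77 ± 0.18, with 951 CPM at day 28 and 1619 CPM at day 14). Esd, an esterase that detoxifies formaldehyde adducts, averaged 476 CPM at day 28 and 1135 CPM at day 14, and Clp1, a kinase of RNA processing, 36 CPM at day 28 and 77.7 CPM at day 14 (-1.25 ± 0.28 and -1.11 ± 0.25). Ftl1-ps1, named as a pseudogene of the ferritin light chain, averaged 12.6 CPM at day 28 and 42.4 CPM at day 14, and its reads may be shared with Ftl1.

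Regulators of transcription and signalling were also lower. Tsc22d3, the glucocorticoid-induced gene GILZ, had 244, 222 and 206 CPM in the day 28 libraries, against 443, 527 and 488 CPM in the day 14 libraries (-1.12 ± 0.23, adjusted p = 0.0447). Dusp10, a phosphatase of the stress kinases p38 and JNK, had 3.15, 6.29 and 3 CPM in the day 28 libraries, against 16, 16.4 and 11.9 CPM in the day 14 libraries (-1.83 ± 0.38, adjusted p = 0.0447). Gtf2b, a general factor of RNA polymerase II, had 98.3, 80.5 and 88.9 CPM in the day 28 libraries, against 214, 178 and 172 CPM in the day 14 libraries (-1.07 ± 0.20, adjusted p = 0.0433). In all 3 the libraries of a day lay close together. The noncoding RNAs Mir22hg, host of a microRNA, and Dubr averaged 79.2 CPM at day 28 and 160.0 CPM at day 14, and 26.3 CPM at day 28 and 69.3 CPM at day 14. Cd24a, a surface glycoprotein of myeloid precursors and dendritic cells, had 16.9, 30.3 and 14.1 CPM in the day 28 libraries, against 97.9, 66.1 and 56.8 CPM in the day 14 libraries (-1.85 ± 0.42, adjusted p = 0.0485). Cd24a was 1 of 21 dendritic cell genes tested and the 1 of them that edgeR passed, and DESeq2 and limma voom also passed 1 lower. The interferon-inducible genes Slfn2, Ifi207 and Ifitm6 fell too. Slfn2 had 728, 607 and 612 CPM in the day 28 libraries, against 1634, 1239.7 and 1802 CPM in the day 14 libraries (-1.26 ± 0.23, adjusted p = 0.0433). Ifi207, a member of the cytosolic DNA sensor family, had 227, 210.0 and 185 CPM in the day 28 libraries, against 489, 415 and 627 CPM in the day 14 libraries (-1.30 ± 0.29, adjusted p = 0.0485). Ifitm6, a membrane protein typical of classical monocytes, had 73.4, 61 and 96.9 CPM in the day 28 libraries, against 327, 237 and 181 CPM in the day 14 libraries (-1.69 ± 0.35, adjusted p = 0.0447). For Ifitm6 all 3 day 28 libraries were under 100 CPM and all 3 day 14 libraries over it. CT010467.1, the ribosomal RNA entry whose share also describes library make-up, passed as well, with 579 CPM at day 28 and 2574 CPM at day 14 after scaling.

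Levels in control and day 2 monocytes, which took no part in the contrast, place these genes in the course of the response, while the day 28 and day 14 values are those that chose them. Over the 96 genes that rose, the median of the group means was 39.9 CPM in controls, 11.1 CPM at day 2, 5.28 CPM at day 14 and 27.0 CPM at day 28. The median ratio to the control mean was 0.765 at day 28 and 0.127 at day 14. By these ratios day 28 monocytes stood nearer to monocytes without an implant than day 14 monocytes did. The genes were chosen for lower day 14 than day 28 levels, which favours low day 14 ratios. The order is therefore a description and no separate evidence of a return toward controls. In the tests against controls, which use the same day 28 and day 14 libraries, 91 of the 96 genes were lower at day 14, and 15 of the 96 differed in either direction at day 28. The background in these tests was 17.9% of all genes lower at day 14 and 18.2% differing at day 28. A background of all genes does not allow for the choice of the 96 genes, or of the 21 that fell, by these libraries. Over the 21 genes that fell, the medians were 76.6, 304.7, 248.5 and 110.4 CPM in controls and at days 2, 14 and 28. Of these 21, 19 were higher than controls at day 14, against a background of 19.8% of all genes. At day 28, 14 of the 21 differed from controls, against 18.2% of all genes. Cdkn1a, for example, had means of 76.6, 2043, 3755 and 1574 CPM at these times, so its day 28 level was still far above that of controls. Apoe and Socs3 at day 28 also stood above their control means, of 1441 and 79.5 CPM.

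**Figure D4:**
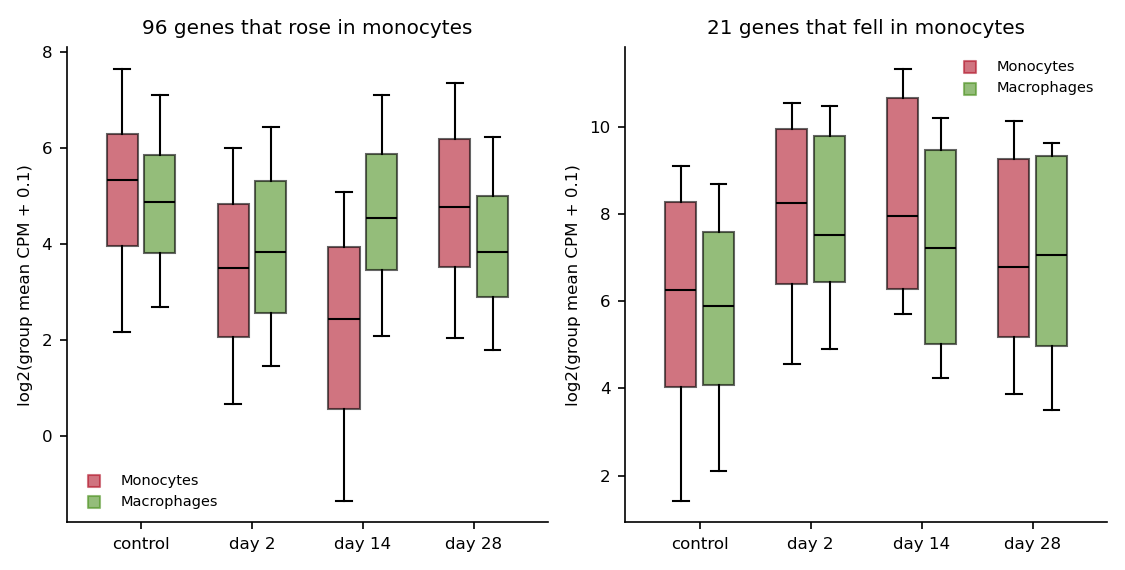
Group mean levels, as log2 of CPM plus 0.1, of the 96 genes that rose (left) and the 21 that fell (right) between day 28 and day 14 in monocytes, in controls and at days 2, 14 and 28; boxes span the quartiles with the median as a line, and whiskers run from the 10th to the 90th percentile of genes. The genes were chosen by their day 28 and day 14 levels in monocytes. In monocytes this fixes day 14 below day 28 on the left and above it on the right. It also favours low (left) or high (right) day 14 levels. The macrophage medians of the rising genes were 14.1 CPM at day 28 and 23.2 CPM at day 14.

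The change was set against that of Cx3cr1+ Ly6C-low macrophages between the same days. In macrophages, day 28 against day 14, edgeR passed 1 gene (0.00615% of genes tested), the zinc finger gene Zfp169, which is named although the naming rule did not pick it. The difference between the 2 cell types' changes, tested as an interaction in the same fit, passed 196 genes in which the change was higher in monocytes (1.21%) and 6 in which it was lower (0.0369%). Of the 96 genes that rose in monocytes 67 also passed this test, as did 0 of the 21 that fell. The 2 tests share the monocyte libraries, so this overlap is not independent evidence. In macrophages 11 of the 96 fold changes were positive. Apoe in macrophages had 1755, 7494 and 10552 CPM at day 28 and 17828, 23644 and 26266 CPM at day 14. The macrophage groups did not overlap for Apoe and stood in the opposite order to those of monocytes, and the interaction was 5.38 ± 1.08 on the log2 scale (adjusted p = 0.029).

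Tmem70 and Tsen34 had interactions of 4.88 ± 0.86 and 4.82 ± 0.95 (adjusted p = 0.029 and 0.029). Tsen34 in macrophages had 3.93, 7.13 and 24 CPM at day 28 and 23.5, 34 and 39.7 CPM at day 14. Macrophage libraries A and B of day 28 lay at low values like those of day 14 monocytes, whereas library C lay near the macrophages of day 14. Socs3 in macrophages had 80.8, 154 and 403 CPM at day 28 and 375, 464 and 246 CPM at day 14, with overlap, and an interaction of 3.26 ± 0.77 (adjusted p = 0.0435). Among genes whose monocyte change did not pass by itself, the early response gene Egr1 had an interaction of 3.97 ± 0.87 (adjusted p = 0.0347), Xbp1 of the unfolded protein response 3.58 ± 0.76 (adjusted p = 0.0322), and the lysosomal channel Mcoln1 4.33 ± 0.94 (adjusted p = 0.0335). The matrix protease Mmp19 was 1 of the 6 genes in the other direction. Mmp19 had 71.8, 177 and 151 CPM in the day 28 libraries, against 273, 389.8 and 224 CPM in the day 14 libraries, while macrophages had 560.3, 510.1 and 318 CPM at day 28 and 238, 185 and 233 CPM at day 14 (interaction -2.23 ± 0.49, adjusted p = 0.0357). The interaction count fell to 0 higher and 0 lower without macrophage library B of day 14, macrophage library A or B of day 28, or monocyte library B of day 28, and to 4 and 3 higher with 0 lower without monocyte library B or C of day 14. It was 96 higher and 15 lower without macrophage library C of day 14, 118 and 5 without monocyte library A of day 28, and 779 and 35 without macrophage library C of day 28. At an unadjusted p under 0.05 the fits without 1 library gave 1318 to 1903 genes higher.

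Interferon-stimulated genes, which cells switch on when interferon is sensed, lay lower at day 28 as a list without a member passing the test. Of 52 tested members, 0 passed in edgeR, 0 were higher and 23 lower at an unadjusted p under 0.05 (0% and 44.2%, against 11.1% and 8.56% of all genes), and DESeq2 passed 14 lower and limma voom 2 lower. The median log2 fold change was -0.92, against 0 for all genes, and 46 of the 52 fold changes were negative. Cxcl10, a chemokine for T cells, had 740.5, 174 and 211 CPM in the day 28 libraries, against 1595, 611 and 3435 CPM in the day 14 libraries (-2.33 ± 0.71, adjusted p = 0.0886). Ifit1, which binds viral RNA, had 203, 132 and 105 CPM in the day 28 libraries, against 573, 229 and 812 CPM in the day 14 libraries (-1.87 ± 0.57, adjusted p = 0.0876). Ifitm3, a membrane protein that blocks virus entry, had 5508, 2392 and 3003 CPM in the day 28 libraries, against 11660.2, 4625 and 15597 CPM in the day 14 libraries (-1.55 ± 0.42, adjusted p = 0.0626). In each of these genes day 14 library C was the highest of the 6, and day 14 library B was the lowest of its day. The summed level of the list was 18669.6, 9714 and 10857 CPM at day 28 and 31074, 15398 and 49661 CPM at day 14, which overlap. With day 14 library B as the only day 14 library, the list's median was 0.00, and without day 14 library C it was -0.42. With scaling by library total it was -0.52, against 0.30 for all genes, with 0 higher and 8 lower at an unadjusted p under 0.05. The 23 genes lower at an unadjusted p under 0.05 became 3 without day 14 library C, 11 without day 28 library B, 13 without day 28 library C and 15 without day 14 library A, and 28 to 29 when another single library of the 6 was left out. The same list had a median of -0.74 in macrophages over the same days, and its median interaction, monocytes minus macrophages, was -0.23.

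Promoters of this list are shown because its members lay lower together and share a known control element, the interferon-stimulated response element. The RefSeq promoter table (GRCm38.p6, 250 bases before to 50 bases after the start of transcription) matched 39 of the 53 listed genes by symbol. A motif of this element, GAAA, then 2 bases of any kind, then GAAA, searched on both strands, was in 25 of these 39 (64.1%), against 3.49% of 27025 promoters in the table. It was in 0 of the 72 promoters matched for genes that rose and in 1 of the 17 matched for genes that fell, that of Ifi207. Matches are descriptions and not binding sites. Capitals mark the motif on either strand, sequences run 5′ to 3′ on the strand of the gene, and Ifit1 is on the plus strand (chr19:34640769-34640868) while Cxcl10 (chr5:92348990-92349109) and Ifitm3 (chr7:141010715-141010744) are on the minus strand.
Ifit1: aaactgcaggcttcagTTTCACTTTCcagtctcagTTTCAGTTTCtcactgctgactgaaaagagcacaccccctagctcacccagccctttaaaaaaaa
Cxcl10: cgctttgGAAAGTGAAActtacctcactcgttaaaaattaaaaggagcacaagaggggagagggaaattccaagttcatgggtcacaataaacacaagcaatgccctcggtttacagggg
Ifitm3: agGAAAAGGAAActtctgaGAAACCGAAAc
In Ifit1 both matches lie within 120 bases before the start, in Cxcl10 the match begins 213 bases before it, and in Ifitm3 both lie within 30 bases after it. The other motifs searched gave no share above 34.7% among the genes that rose. That value belonged to a κB motif, GGGA followed by 4 bases of any kind and CC, which 20.5% of all promoters hold. For ACGTG the share was 23.6% against 19.7%, for TTTGAA 8.33% against 18.1%, for TGANTCA 5.56% against 7.93%, for CCAAT 30.6% against 37.9% and for TGACNNNGC 16.7% against 12.5%. Among the 17 promoters of genes that fell, the κB motif had a similar share of 35.3%. There CCAAT had 52.9%, TGACNNNGC 29.4%, ACGTG 23.5%, TTTGAA 11.8% and TGANTCA 11.8%.

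Genes for inflammatory signals tended to lie lower as well. Of 24 chemokine genes 0 passed in edgeR, the median was -1.01, and DESeq2 passed 1 higher and 7 lower and limma voom 2 lower. In edgeR 1 was higher and 11 were lower at an unadjusted p under 0.05 (4.17% and 45.8%, against 11.1% and 8.56% of all genes). Cxcl2, which draws neutrophils, had 920.4, 642 and 985 CPM in the day 28 libraries, against 2083, 1636 and 2814 CPM in the day 14 libraries (-1.36 ± 0.36, adjusted p = 0.0613). Ccl2, which draws monocytes, had 308, 154 and 197 CPM in the day 28 libraries, against 653, 345 and 997 CPM in the day 14 libraries (-1.60 ± 0.46, adjusted p = 0.0751). Cxcl14 was the exception, and had 11, 31.2 and 5.16 CPM in the day 28 libraries, against 0.623, 1.13 and 0.577 CPM in the day 14 libraries (4.33 ± 1.09, adjusted p = 0.0573). With day 14 library B alone, the list's median was -0.12. With scaling by library total it was -0.61, against 0.30 for all genes, with 2 higher and 5 lower at an unadjusted p under 0.05. The 11 chemokine genes lower at an unadjusted p became 4 without day 28 library B and 5 without day 14 library C, and 8 to 12 when another single library of the 6 was left out. Of 29 inflammatory cytokine genes 0 passed in edgeR, with a median of -0.60, and DESeq2 passed 3 lower and limma voom 1 lower. In edgeR 0 were higher and 5 lower at an unadjusted p under 0.05 (0% and 17.2%, against 11.1% and 8.56% of all genes). Il1rn, the antagonist of the interleukin 1 receptor, had 2076, 2276 and 2023 CPM in the day 28 libraries, against 4476, 3418 and 3944 CPM in the day 14 libraries (adjusted p = 0.138), and Tnf had 39.7, 24.1 and 20 CPM in the day 28 libraries, against 54, 44.8 and 109 CPM in the day 14 libraries (adjusted p = 0.12). The groups of Il1rn and Tnf did not overlap, and neither gene passed. With day 14 library B alone, the median of the cytokine list was 0.04. The 5 cytokine genes became 3 without day 14 library A and 3 without day 14 library C, and 4 to 7 when another single library of the 6 was left out. With scaling by library total the median was -0.22, with 0 higher and 2 lower at an unadjusted p under 0.05.

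Of 27 genes of classical monocytes edgeR passed Ifitm6, DESeq2 8 lower and limma voom 5 lower. In edgeR 0 were higher and 10 lower at an unadjusted p under 0.05 (0% and 37%, against 11.1% and 8.56% of all genes), with a median of -0.71. The 10 became 6 without day 14 library A, and 8 to 10 when another single library of the 6 was left out. With scaling by library total 0 were higher and 6 lower, and the median was -0.37, against 0.30 for all genes. Cd14, the lipopolysaccharide co-receptor, had 5700.1, 7777 and 7549 CPM in the day 28 libraries, against 15183, 13042 and 12159.6 CPM in the day 14 libraries (-0.94 ± 0.23, adjusted p = 0.0512). The chemokine Ccl9 had 1543, 1385 and 1467 CPM in the day 28 libraries, against 3041, 2555 and 2367 CPM in the day 14 libraries (adjusted p = 0.0651). Both were tight within each day and did not overlap, and neither passed. Il1r2, the decoy receptor of interleukin 1, had 212, 225 and 274 CPM in the day 28 libraries, against 1201, 663 and 883 CPM in the day 14 libraries (-1.95 ± 0.47, adjusted p = 0.0512), and the C-type lectins Clec4n and Clec4d averaged 1905 CPM at day 28 and 4399 CPM at day 14, and 615 CPM at day 28 and 1594 CPM at day 14 (adjusted p = 0.0662 and 0.0643). Among 25 hypoxia genes 0 passed in edgeR, and DESeq2 passed 3 lower and limma voom 1 lower. At an unadjusted p under 0.05 in edgeR, 2 were higher and 7 lower (8% and 28%, against the same shares of all genes). The 7 lower became 3 without day 14 library A. The 2 higher became 0 without day 28 library B, 1 without day 28 library C or any single day 14 library and 3 without day 28 library A. With scaling by library total 3 hypoxia genes were higher and 3 lower. The lipid droplet protein Hilpda had 1168, 824 and 732 CPM in the day 28 libraries, against 2644, 1785 and 3396 CPM in the day 14 libraries (-1.52 ± 0.38, adjusted p = 0.0547). Hmox1, which breaks down heme, had 315, 663 and 333 CPM in the day 28 libraries, against 1284, 747 and 1249 CPM in the day 14 libraries (-1.32 ± 0.33, adjusted p = 0.0525).

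Many nuclear genes of the respiratory chain and of the ribosome lay lower at day 28, with none past the threshold. Of 74 genes of oxidative phosphorylation 0 passed in edgeR, with a median of -0.97, and DESeq2 passed 2 higher and 30 lower and limma voom 1 higher and 1 lower. In edgeR 3 were higher and 48 lower at an unadjusted p under 0.05 (4.05% and 64.9%, against 11.1% and 8.56% of all genes). Ndufa1 of complex I had 306, 178 and 214 CPM in the day 28 libraries, against 673, 326 and 719 CPM in the day 14 libraries (-1.30 ± 0.39, adjusted p = 0.086), whereas Uqcrfs1 of complex III had 147, 146 and 146 CPM in the day 28 libraries, against 38.6, 12 and 33.3 CPM in the day 14 libraries (2.39 ± 0.62, adjusted p = 0.0595). The 3 day 28 libraries of Uqcrfs1 were almost equal. Of 76 cytosolic ribosomal protein genes 0 passed in edgeR, 0 were higher (0%) and 43 lower (56.6%) at an unadjusted p under 0.05, with a median of -0.79, and DESeq2 passed 25 lower and limma voom 1 lower. Of 9 mitochondrially encoded genes 0 passed in edgeR, DESeq2 and limma voom, 0 were higher (0%) and 5 lower (55.6%) at an unadjusted p under 0.05, and the median was -0.86. Those 5 became 0 without day 14 library A or day 28 library B, 1 without day 28 library A, 1 with an offset for length or GC, and 0 with scaling by library total. These genes are short, with median exon lengths of 1737, 1806 and 1038 bases against 3691 bases for all genes tested. The GC slopes of the libraries did not overlap between the days, and the length slopes overlapped. With offsets for exon length the 3 medians were -0.70, -0.74 and -0.63, and with day 14 library B as the only day 14 library -0.16, -0.21 and -0.69. With scaling by library total the medians of oxidative phosphorylation and ribosomal protein genes were -0.56 and -0.41, against 0.30 for all genes. At an unadjusted p under 0.05 that scaling gave 5 higher and 23 lower, and 2 higher and 16 lower. The 48 genes of oxidative phosphorylation lower at an unadjusted p became 15 without day 14 library C, 23 without day 28 library B and 28 without day 14 library A, and 34 to 53 when another single library of the 6 was left out. The 43 ribosomal protein genes became 12 without day 14 library C, 19 without day 28 library B and 21 without day 14 library A, and 33 to 50 when another single library of the 6 was left out.

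**Figure D5:**
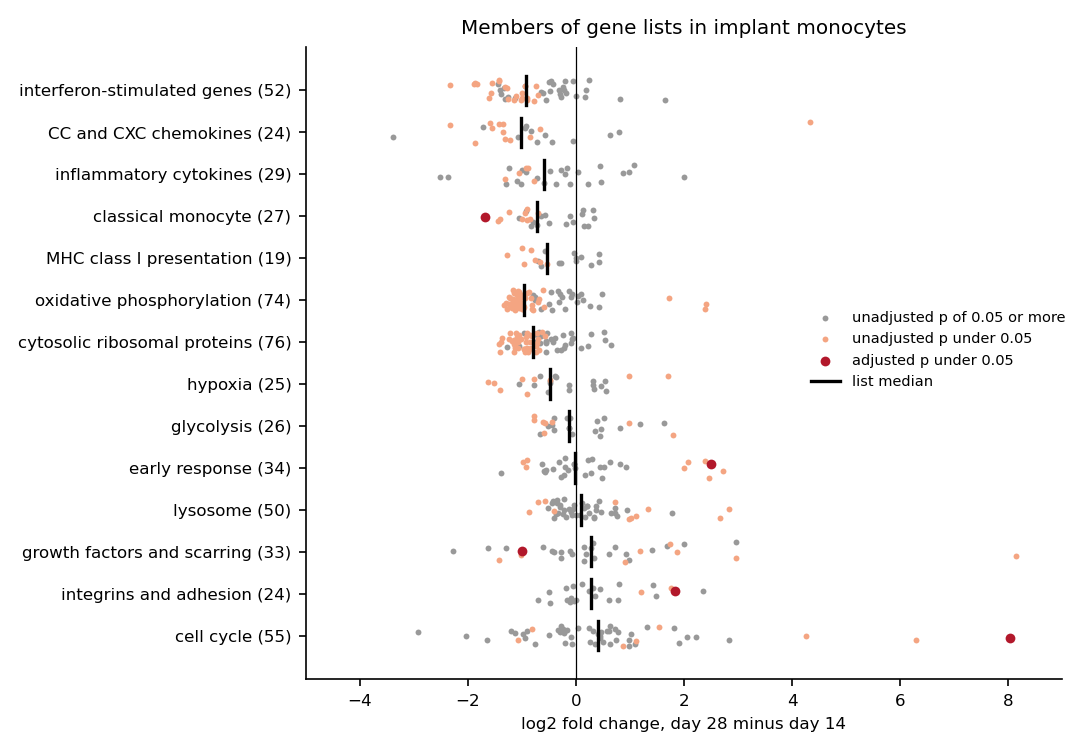
Log2 fold changes, day 28 minus day 14, of the tested members of 14 gene lists (number tested in parentheses); each point is 1 gene, coloured by its test in edgeR, and the black bar is the list's median. Interferon, chemokine, respiratory chain and ribosomal protein genes lie mostly left of 0 with no member past the threshold, and Cdc20, Socs3, Itgb1, Ifitm6 and Plaur are the members that passed.

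Growth factor and lysosomal genes had shares of higher and lower members not far from those of all genes, which were 11.1% higher and 8.56% lower at an unadjusted p under 0.05. Of 33 growth factor and scarring genes edgeR passed Plaur, DESeq2 2 higher and 2 lower, and limma voom 1 lower. In edgeR 6 were higher (18.2%) and 3 lower (9.09%) at an unadjusted p under 0.05. The 6 became 3 without day 28 library B, and the 3 became 5 without it. The profibrotic cytokine Tgfb1 had 68.9, 137 and 217 CPM in the day 28 libraries, against 52.4, 17.6 and 45.9 CPM in the day 14 libraries (1.87 ± 0.61, adjusted p = 0.104). The groups of Tgfb1 did not overlap, and day 28 library A lay close to day 14 library A. Of 50 lysosomal genes 0 passed in edgeR, 7 were higher (14%) and 4 lower (8%) at an unadjusted p under 0.05, and DESeq2 passed 4 higher and 3 lower and limma voom 1 lower. These counts were 4 higher and 10 lower without day 28 library B and with the length offset, and 15 higher and 1 lower with scaling by library total. Mcoln1 had 48.5, 66.6 and 18.1 CPM in the day 28 libraries, against 2.98, 6.36 and 9.18 CPM in the day 14 libraries (2.84 ± 0.69, adjusted p = 0.0512), and the α-galactosidase gene Gla had 184, 157 and 94.7 CPM in the day 28 libraries, against 287, 257 and 256 CPM in the day 14 libraries (-0.88 ± 0.22, adjusted p = 0.0571). Xbp1, which drives the unfolded protein response, had 310.0, 389.8 and 416 CPM in the day 28 libraries, against 88.4, 75.1 and 59.9 CPM in the day 14 libraries (2.32 ± 0.55, adjusted p = 0.0512), and Atf4 of the stress response to amino acid shortage had 151, 93.7 and 104 CPM in the day 28 libraries, against 208, 256 and 239 CPM in the day 14 libraries (-1.01 ± 0.27, adjusted p = 0.0626). Xbp1 stood higher and Atf4 lower without overlap, and neither passed.

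Markers of other cells differed in level between the libraries. Hbb-bs, a globin of red blood cells, had 6.24, 0.244 and 1.43 CPM in the day 28 libraries, against 175, 60.4 and 228 CPM in the day 14 libraries (-5.89 ± 1.70, adjusted p = 0.0753). All day 28 libraries were far below all day 14 libraries. Of 11 erythroid and platelet genes tested 0 passed in edgeR, and DESeq2 passed 4 lower and limma voom 0. In edgeR 0 were higher and 5 lower at an unadjusted p under 0.05 (0% and 45.5%, against 11.1% and 8.56% of all genes). Fibroblast genes summed to 472, 838 and 349 CPM at day 28 and 1347, 1128 and 719 CPM at day 14, which overlap. Of 20 such genes 0 passed in edgeR and in DESeq2, 0 were higher (0%) and 1 lower (5%) at an unadjusted p under 0.05, and limma voom passed 1 lower. The matrix protein gene Sparc had 107, 152 and 49.9 CPM in the day 28 libraries, against 348, 263 and 256 CPM in the day 14 libraries (adjusted p = 0.256), against a control monocyte mean of 0.346 CPM. Neutrophil genes summed to 391, 654 and 651 CPM at day 28 and 1013, 346 and 559 CPM at day 14. T cell genes summed to 105, 89.3 and 120.0 CPM at day 28 and 153, 229.8 and 204 CPM at day 14, and B and plasma cell genes to 272, 506 and 399.9 CPM at day 28 and 208, 211 and 213 CPM at day 14. The T cell sums were lower and the B and plasma cell sums higher in all day 28 libraries, and neutrophil sums overlapped. Of 14 tested B and plasma cell genes 6 fold changes were positive and 7 negative, with a median of -0.37, so the sum does not describe most members. Of 20 T cell genes 5 were positive and 15 negative. Among all genes 10.1% separated the days in the higher direction and 9.78% in the lower. Of the neutrophil, T cell and B and plasma cell lists 0 genes passed in edgeR, with 2 higher and 2 lower (neutrophil), 1 and 1 (T cell) and 2 and 0 (B and plasma cell) at an unadjusted p under 0.05. The shares were 10% and 10%, 5% and 5%, and 14.3% and 0%. DESeq2 passed 1 lower neutrophil gene, 0 T cell genes and 1 higher B and plasma cell gene, and limma voom passed 0. In all 3 libraries of day 28 and of day 14, 7 and 4 of 16 B and plasma cell markers and 6 and 5 of 15 erythroid and platelet markers were at 0. The part of red blood cell or fibroblast RNA in the genes that rose or fell was not tested.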

How the data were processed

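RNA of sorted monocytes and macrophages was sequenced with SMART-Seq v4 and Nextera XT libraries and single reads of 75 bases, per the labels' protocols. Reads were demultiplexed with bcl2fastq, aligned with STAR 2.4.1d to GRCm38 and counted with featureCounts of Subread 1.5.1, per the submitters' processing notes. Not given in the sources used here are the strand setting, the annotation release and how multiply mapped reads were counted. The authors deposited raw read counts per gene for all 23 libraries, with totals of 9303153 to 32994092. Of 47729 entries, 47310 have a symbol, and the other 419 hold 0.095% of the counts.

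Counts were tested with edgeR 4.0.16 (R 4.3.3), using TMM scaling, its filter on low counts by group, a prior count of 0.125 and robust quasi-likelihood fits over the 8 groups, which share 1 estimate of spread. Benjamini-Hochberg adjusted p under 0.05 was the threshold, and errors are SE. DESeq2 1.42.0 and limma 3.58.1 (voom) were alternatives. CPM uses TMM-scaled library sizes. 1 floor of 3 counts over a group bounds folds, and 3 counts in 1 library are 0.0909 to 0.322 CPM. Intervals and floors cover counting error only. The code was tested on simulated data. The labels do not say whether replicate letters pair libraries of the 2 days, and the main fit treats them as unpaired. Named genes were up to 15 largest rises and 15 largest falls past the threshold with at least 5 CPM in the higher group and no overlap, up to 4 members with the smallest p of each list described, and the sort genes. Other genes that passed were named by role after their values were seen. The comparison, its genes and the gene lists were chosen with earlier results of these data known. GENCODE M21 gave positions, exon lengths and GC content.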

Additional observations from a re-analysis of the deposited data

Results flagged for a closer look

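The change between day 28 and day 14 differed between monocytes and macrophages, by a test of the difference itself (edgeR interaction, adjusted p under 0.05), for 67 of the 96 genes that rose in monocytes. Of all genes tested, 1.21% passed with a higher change in monocytes. The 96 genes were chosen by their monocyte change, which is a part of the interaction, so a high share was favoured. Among named genes the interaction, monocytes minus macrophages on the log2 scale, was 9.31 for Cdc20, 6.30 for Ddx51, 5.86 for Gar1, 5.83 for Copz2, 5.38 for Apoe and 5.23 for H2afx. The value for Cdc20 rests on 0 counts in day 14 monocytes and depends on the prior count. It was 5.11 for Rbfa, 4.88 for Tmem70, 4.82 for Tsen34, 4.82 for Zfp358, 4.77 for Nagpa and 4.64 for Arhgap9. It was 3.99 for Abcb10, 3.66 for Cog1 and 3.26 for Socs3. These tests share the monocyte libraries with the comparison of days. The count of genes passing fell to 0 when any of 4 single libraries was left out, and with only the groups compared. Groups of 3 libraries were not tested for outlying samples.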

How the results depend on the processing

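All 117 genes kept their sign in each setting run, among those tested there (116 with only the groups compared). These genes were chosen by the same libraries and do not overlap between the days, so a kept sign is little evidence of stability. Against 96 higher and 21 lower as reported, DESeq2 size factors gave 113 and 35, no filter on low counts 1270 and 253, DESeq2 841 and 672, and limma voom 140 and 116. A fit of only the 2 groups gave 219 and 11. A prior count of 2 gave 96 and 21, which was fixed in advance, since it changes the fold changes and not the p-values. Leaving out 1 library gave 0 to 179 higher and 0 to 73 lower. Among settings chosen after seeing the data, an offset for exon length gave 190 and 214, an offset for GC content 173 and 141, scaling by library total 707 and 15 (median of all genes 0.30), counts thinned to the lowest total 167 and 43, and day 14 library B as the only day 14 library 0 and 0, where that lone library is assumed to vary like the others. In the last, the proteasome gene Psmb9 changed sign, to a log2 fold change of 0.061.

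Libraries that share a letter did not deviate together over all genes (deviation correlations -0.055 for A, 0.044 for B and 0.0014 for C). These correlations cannot exclude a pairing or batch that acts on some genes. A replicate block gave 2 higher and 0 lower between the days, and 186 and 5 for the interaction.

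For the interaction, 196 higher and 6 lower as reported became 1056 and 93 without the filter, 689 and 123 with DESeq2, 592 and 56 with limma voom, and 0 and 0 with only the groups compared. They became 162 and 18 with the length offset, 157 and 8 with the GC offset, 507 and 8 with total scaling, and 319 and 20 with thinned counts. Leaving out 1 library gave 0 to 779 higher and 0 to 35 lower. The cause of these shifts was not tested. Genes of low count limit the precision, and the calls lie close to the threshold.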
